A study of Mus musculus with 18 samples.

Results

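The genes described here are 9 feedback regulators and targets of fibroblast growth factor (FGF) signalling, examined for binding of a pair of limb transcription factors in mouse limb buds. They are Spry1, Spry2, Spry4, Spred1, Spred2, Dusp6, Il17rd, Etv4 and Etv5, 9 of 21887 protein-coding genes. The study asked which gene networks make a hindlimb bud differ from a forelimb bud. Of its 18 chromatin immunoprecipitation and input samples, 2 are used here, and those of histone marks and inputs are not analysed here. One mapped Pitx1, a homeodomain factor of the hindlimb bud, in hindlimb buds at e11.5, and the other mapped Tbx5, a T-box factor of the forelimb bud, in forelimb buds at e10.5. Both came from wild-type embryos of CD1, an outbred strain, and each used a homemade antibody. The number of embryos per sample is not stated, and neither is any pooling. Summit lists hold no expression, so the tissue of either sample could not be checked against marker genes.

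FGFs made by the apical ridge of the limb bud signal to the mesenchyme beneath it through receptors that activate the Ras and ERK kinase cascade. The cascade switches on genes whose products hold it back. Sprouty proteins (Spry1, Spry2, Spry4) and the related Spred proteins (Spred1, Spred2) restrain the Ras and Raf steps, Dusp6 is a phosphatase that inactivates ERK, and Il17rd, also known as Sef, is a membrane inhibitor of the pathway. Etv4 and Etv5 are Ets transcription factors induced by FGF in the limb mesenchyme, where they help to keep Shh out of the anterior part of the mouse limb bud.

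The deposited lists give summits, the highest point of each region enriched by the antibody, on build mm10. A summit belonged to a gene when that gene was the nearest protein-coding one within 100 kb, and a summit inside a gene counted as at distance 0. A summit is called shared when the other factor has one within 200 bp. The stretch of a gene is the sequence that would be assigned to it by this rule. The score of a summit is the deposited −log10 of its q-value, which ranks summits within a list and does not compare the lists. Each factor has a single sample, so no replicate error can be given, read depth is unknown, and the 95% intervals below cover counting error within a list and no other. The lists differ at once in factor, limb, stage and antibody, and the effects of these cannot be told apart. The rule found 93 of 54941 Pitx1 summits and 19 of 10273 Tbx5 summits at the 9 genes.

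The sequence around the gene start was examined for summits and for motif letters. A RefSeq table of promoter windows on GRCm38.p6, the assembly that mm10 represents, matched 7 of the 9 genes, all but Spry4 and Etv4, with 8 windows, since Etv5 has 2. A window runs from 250 bases before the start to 50 after it. Of the 8 windows, 2 held a Pitx1 summit, against 11.7% of 21263 windows of protein-coding genes. A Tbx5 summit lay in 1 of the 8, against 1.48%, and summits of both lay in 1, against 0.466%. The window with both is that of Dusp6, the other with a Pitx1 summit is that of Spry1, and that of Il17rd is shown as the one that holds a Pitx1-type motif. The 250 bases before the start are given, 5′ to 3′ on the plus strand, which is the coding strand of all 3 genes. They are chr10:99262981-99263230 for Dusp6, chr3:37639697-37639946 for Spry1 and chr14:27038751-27039000 for Il17rd. Capitals run from 10 bases before the first summit to 10 after the last in Dusp6 and Spry1, and mark the motif in Il17rd.
Dusp6: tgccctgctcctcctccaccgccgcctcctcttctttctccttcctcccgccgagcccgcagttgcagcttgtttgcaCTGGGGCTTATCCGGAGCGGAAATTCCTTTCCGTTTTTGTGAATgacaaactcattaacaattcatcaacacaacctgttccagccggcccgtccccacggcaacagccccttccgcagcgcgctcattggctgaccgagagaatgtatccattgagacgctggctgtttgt
Spry1: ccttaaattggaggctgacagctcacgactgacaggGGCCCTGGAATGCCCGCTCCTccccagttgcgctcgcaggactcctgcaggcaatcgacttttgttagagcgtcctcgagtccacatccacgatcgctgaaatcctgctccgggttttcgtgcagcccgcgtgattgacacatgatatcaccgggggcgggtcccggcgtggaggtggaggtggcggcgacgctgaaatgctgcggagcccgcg
Il17rd: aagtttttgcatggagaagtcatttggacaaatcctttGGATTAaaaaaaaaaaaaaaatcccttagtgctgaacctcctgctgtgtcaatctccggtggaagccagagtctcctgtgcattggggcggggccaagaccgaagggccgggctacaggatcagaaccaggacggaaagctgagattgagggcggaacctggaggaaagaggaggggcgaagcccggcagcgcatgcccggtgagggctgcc

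In the Dusp6 sequence the Tbx5 summit lay 162 bases and the Pitx1 summit 139 bases before the start, 23 bp apart, so the capitals hold both. In the Spry1 sequence the Pitx1 summit lay 204 bases before the start. The letters TAATCC, typical of Pitx-type homeodomains, were searched on both strands and occurred in the Il17rd window alone among the 8, as GGATTA 212 bases before the start. These letters were in 6.42% of all windows. That window held no summit, and its nearest Pitx1 summit was 164 bp beyond its edge. The T-box letters GGTGTG occurred once, 28 bases after the start of Dusp6, and were in 18.4% of all windows. The Ets letters CCGGAA occurred once, 33 bases after the start of Spry2, and were in 18.7%. None of the 3 motifs overlapped another in the 8 windows, and none lay within the capitals of Dusp6 or Spry1. A match is a description of the letters and shows no binding site.

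Pitx1 summits were found at all 9 genes and Tbx5 summits at 7 of them. Among all protein-coding genes 54.5% had a Pitx1 summit, 18.7% a Tbx5 summit and 16.8% both. The number of Pitx1 summits per gene ran from 5 to 18 with a median of 8, against a median of 1 and quartiles of 0 and 2 over all protein-coding genes. The lowest count among the 9 genes was 5, and 11.7% of all genes held at least as many. That cut was taken from the counts of the 9 genes themselves, so it is no independent comparison. The number of Tbx5 summits ran from 0 to 6 with a median of 2, against a median of 0 over all genes. Etv4 and Etv5 held none.

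**Figure D1:**
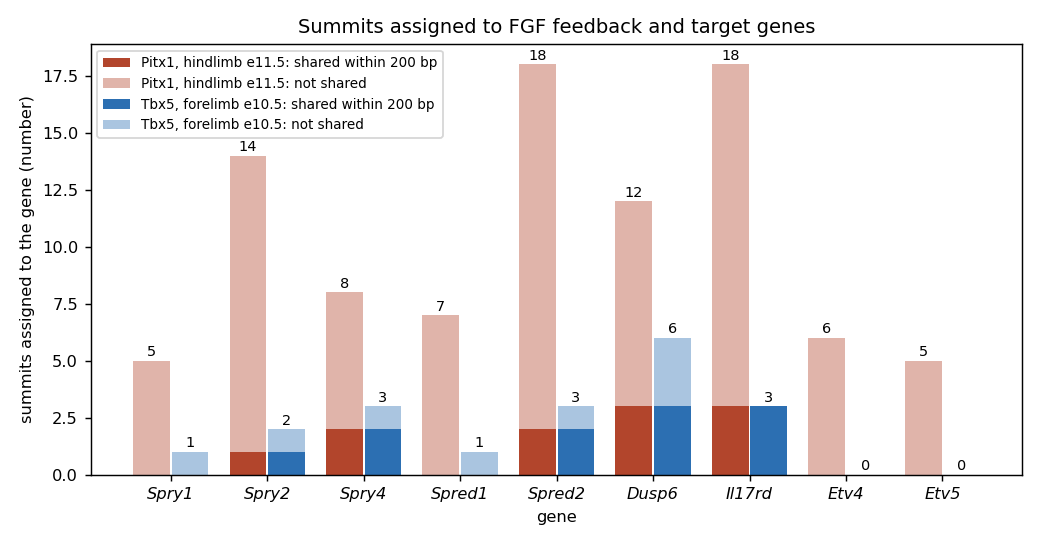
Number of Pitx1 summits (red) and Tbx5 summits (blue) assigned to each of the 9 genes, with the dark part of each bar marking summits that have a summit of the other factor within 200 bp. Spred2 and Il17rd held 18 Pitx1 summits each, Dusp6 held most Tbx5 summits (6), and the bars of Spry1, Spred1, Etv4 and Etv5 have no dark part.

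The 9 genes have long stretches, between 62.9 and 218.7 kb each and 1183 kb in all, against a median of 45.1 kb over all genes, and a longer stretch can hold more summits. Per 100 kb of stretch, the 9 genes held 7.86 Pitx1 summits (exact Poisson interval 6.34 to 9.63), against 2.35 over all protein-coding genes, a ratio of 3.35 (2.70 to 4.10). They held 1.61 Tbx5 summits per 100 kb (0.967 to 2.51), against 0.415, a ratio of 3.87 (2.33 to 6.05). The medians per gene were 8.23 Pitx1 summits per 100 kb for the 9 genes, against 0.962 over all genes, and 1.37 Tbx5 summits per 100 kb, against 0. These ratios describe the lists, and no test set the 9 genes against other genes.

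The density values varied among the 9 genes, and no test was made of the differences. For Pitx1 all 9 lay above the density of all protein-coding genes, and for 6 of them the whole interval did. Il17rd was the densest, with 19.9 Pitx1 summits per 100 kb (11.8 to 31.5), and Spred1 the sparsest, with 3.59 (1.44 to 7.40). The intervals of Il17rd and Spred1 did not overlap, but these genes were picked as the extremes after ranking. Etv5 had 3.86 (1.25 to 9.02), Spry2 6.83, Spry1 7.16, Spred2 8.23, Dusp6 8.77, Etv4 9.55 and Spry4 10.6 per 100 kb, and the intervals of neighbours in this order overlapped. For Tbx5, 7 genes lay above the density of all genes, and the whole interval did so for Dusp6 (4.38 per 100 kb, 1.61 to 9.54), Spry4 (3.96, 0.817 to 11.6) and Il17rd (3.32, 0.686 to 9.72). Spry1, Spred2, Spry2 and Spred1 had 1.43, 1.37, 0.976 and 0.513 Tbx5 summits per 100 kb. The Tbx5 interval of Spred1 (0.0130 to 2.86) overlapped that of Dusp6, the densest gene for Tbx5.

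**Figure D2:**
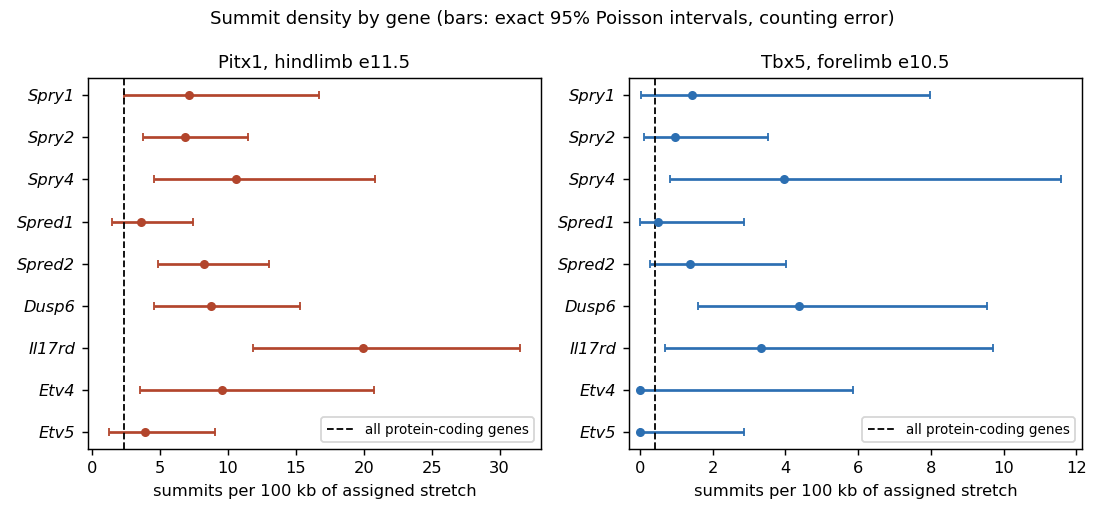
Summits per 100 kb of the stretch assigned to each gene, for Pitx1 (left) and Tbx5 (right), with exact 95% Poisson intervals and a dashed line at the density over all protein-coding genes (2.35 for Pitx1 and 0.415 for Tbx5). Il17rd stands highest for Pitx1 at 19.9, and the intervals of Spry1, Spred1 and Etv5 reach below the Pitx1 line.

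Dusp6, the ERK phosphatase (chromosome 10, 99263231 to 99267489), had sites of both factors together at 3 places. It held 12 Pitx1 and 6 Tbx5 summits, and 3.47% of all genes held at least as many of Pitx1 and 0.923% at least as many of Tbx5. At the promoter, the Pitx1 summit at 99263092 scored 129.1 and the Tbx5 summit at 99263069 scored 9.62. Beyond the far end of the gene, at 1.60 kb, a Pitx1 summit at 99269090 scored 158.3, with a Tbx5 summit of 15.4 at a distance of 66 bp. Farther on, 31.6 kb outside the gene, a Pitx1 summit at 99299058 scored 134.3 and a Tbx5 summit 49 bp away scored 149.6. The last of these is the highest-scoring of the 19 Tbx5 summits and ranked 185 in its list, while the Pitx1 summits at the 3 places ranked 779, 539 and 726. The order of the scores over the 3 places was not the same for the factors, with the promoter lowest for both, the site just past the gene highest for Pitx1 and the distal site highest for Tbx5. The other 3 Tbx5 summits scored 19.5, 6.40 and 22.8 and had their nearest Pitx1 summit 1480, 470 and 3185 bp away. Of the other 9 Pitx1 summits, which reached 64.1, 1 lay inside the gene with a score of 23.0, and those 86.5 and 92.4 kb outside it scored 59.8 and 64.1.

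Il17rd, the membrane inhibitor (chromosome 14, 27038964 to 27107286), held 15 of its 18 Pitx1 summits and all 3 of its Tbx5 summits inside the gene. The highest Pitx1 score was 71.9, at 27065478. The 3 Tbx5 summits lay within a few kilobases of each other, 30.5, 31.8 and 33.2 kb into the gene from its start, and each was shared with Pitx1 at 135, 34 and 60 bp. Their Tbx5 scores were low, 7.64, 3.60 and 5.81, against a median of 8.29 over all assigned Tbx5 summits, while the Pitx1 partners scored 49.2, 46.2 and 10.2. Around the start, Pitx1 summits 867 and 414 bp upstream and 748 bp downstream scored 2.45, 7.07 and 4.32.

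Among the Sprouty genes, which encode inhibitors of receptor tyrosine kinase signalling, Spry4 carried the highest-scoring of the Pitx1 summits assigned to the 9 genes within 100 kb. Spry4 (chromosome 18, 38586247 to 38601347) held 8 Pitx1 summits, 5 of them in the highest-scoring 20% of the list. The summit at 38544591, 41.7 kb outside the gene, scored 272.7 and ranked 148 of 54941, and a Tbx5 summit 92 bp away scored 5.81. A second Pitx1 summit at 38542613 scored 98.9. Closer in, 1.93 kb outside the gene, a Pitx1 summit scored 63.0 and a Tbx5 summit 46 bp away scored 19.5. Inside the gene, Pitx1 summits scored 56.5 and 8.28. The third Tbx5 summit, 1.15 kb outside, scored 3.60 and was 546 bp from Pitx1. The protein-coding neighbour Arhgap26 lies 0.27 kb from Spry4, so binding on that side falls to the neighbour, and within 50 kb of Spry4 Arhgap26 took 3 Pitx1 summits with a highest score of 130.4.

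Spry2 (chromosome 14, 105891947 to 105896819) lies far from other genes and held 14 Pitx1 and 2 Tbx5 summits. Its highest Pitx1 summit scored 86.9 and lay 24.3 kb upstream of the start, at 105921160, with a Tbx5 summit of 29.1 at 37 bp. Near the gene start, Pitx1 summits 1062 bp downstream and 1239 bp upstream scored 38.3 each. The other Tbx5 summit scored 4.67, lay 75.9 kb outside the gene and was 562 bp from a Pitx1 summit of 57.6. Spry1 (chromosome 3, 37639947 to 37644599) held 5 Pitx1 summits and 1 Tbx5 summit, all outside the gene. The Tbx5 summit, 13.7 kb outside, scored 46.8 and lay 1042 bp from the highest Pitx1 summit of the gene, which scored 43.2. The promoter summit shown above scored 3.83, and the remaining Pitx1 scores were 34.5, 2.89 and 2.89. At Spry1 no summit was shared, while Spry2 and Spry4 had 1 and 2 shared sites.

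The Spred genes, whose products act with neurofibromin on Ras, differed in the number of sites and in where they lay. Spred2 (chromosome 11, 19924442 to 20024026) held 18 Pitx1 summits, 11 inside the gene, and 3 Tbx5 summits, all inside it. A Pitx1 summit 374 bp upstream of the start scored 73.0, and another inside the gene at 19986750 scored 74.2. Of the shared pairs at Spred2, the one 78 bp apart had Pitx1 at 11.54, above its list median of 7.07. Its Tbx5 score was 7.64, below the Tbx5 list median of 8.29. The pair 42 bp apart had low scores, with Pitx1 at 2.89 and Tbx5 at 3.60. The highest Tbx5 summit of Spred2, scoring 21.1, lay 201 bp from a Pitx1 summit of 8.28, just past the limit of 200 bp. Spred1 (chromosome 2, 117121071 to 117182279) held 7 Pitx1 summits, with scores from 3.35 to 18.9, and 1 Tbx5 summit of 6.40 that was 10312 bp from the nearest Pitx1 summit. Of the Pitx1 summits at Spred1, 1 lay inside the gene, 1241 bp past the start, and the others lay on the upstream side.

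Neither of the Ets factor genes held a Tbx5 summit. Etv4 (chromosome 11, 101769747 to 101785310) held 6 Pitx1 summits with scores from 2.89 to 42.2, the highest 45.0 kb outside the gene at 101830265. Etv5 (chromosome 16, 22381313 to 22439570) held 5, with scores from 3.35 to 10.9, and none was in the highest-scoring 20% of the list. Of the Etv5 summits, 3 lay 296, 288 and 888 bp upstream of the nearer of its 2 annotated starts, with scores of 10.9, 3.35 and 9.54. The nearest Tbx5 summit was 54.4 kb from Etv4, with a score of 6.40, and was assigned to Meox1, and that nearest Etv5 was 128.9 kb away, with a score of 5.23. Over both genes, 0 Tbx5 summits in 192 kb allow a density of up to 1.92 per 100 kb, which is above the 0.415 of all genes, so the absence is within counting error of that density. The limit also overlaps the Tbx5 intervals of the Sprouty genes, the Spred genes, and Dusp6 with Il17rd. The 2 Ets genes had 5.72 Pitx1 summits per 100 kb (2.86 to 10.2).

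By role, Dusp6 and Il17rd together had 13.2 Pitx1 summits per 100 kb (8.91 to 18.9), the Sprouty genes 7.70 (5.08 to 11.2) and the Spred genes 6.04 (3.91 to 8.92). For Tbx5, Dusp6 and Il17rd had 3.96 per 100 kb (1.81 to 7.52), the Sprouty genes 1.71 (0.628 to 3.73) and the Spred genes 0.967 (0.263 to 2.48). The order was the same for both factors, and the intervals of neighbours in it overlapped.

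**Figure D3:**
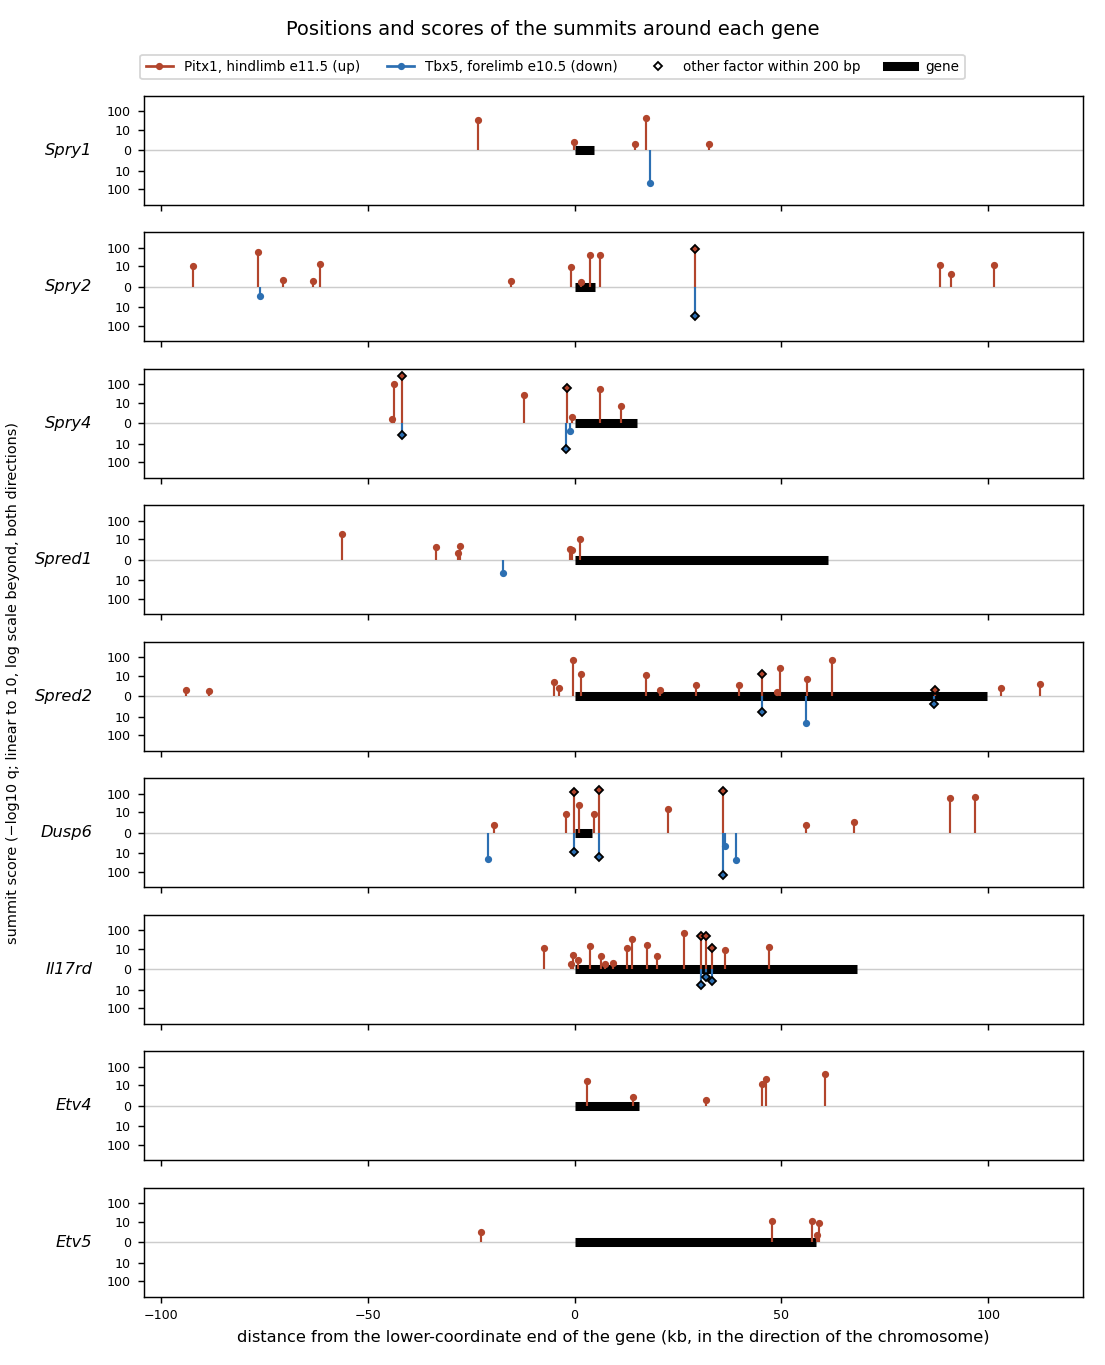
Position and score of each summit around the 9 genes, with Pitx1 summits drawn upwards and Tbx5 summits downwards from the line, the gene as a black bar and diamonds for summits with the other factor within 200 bp. The horizontal axis is the distance in kb from the lower-coordinate end of the gene, and the vertical axis is the score (−log10 q), linear up to 10 and on a log scale beyond. Sites of both factors coincide at 3 places at Dusp6 and at 3 at Il17rd, where they lie close together inside the gene.

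Where Tbx5 summits occurred at these genes, Pitx1 was often at the same place. Of the 19 Tbx5 summits, 11 (57.9%, exact Clopper-Pearson interval 33.5 to 79.7) had a Pitx1 summit within 200 bp, against 38.4% of Tbx5 summits assigned to any protein-coding gene, a value inside that interval. The 11 lay at 5 of the 9 genes, 3 each at Dusp6 and Il17rd, 2 each at Spry4 and Spred2, and 1 at Spry2. Over all protein-coding genes 8.80% had such a site. The pairs were 23 to 135 bp apart with a median of 49 bp, against a median of 60 bp over the whole list. Of the 8 unshared Tbx5 summits, 4 were within 1 kb of a Pitx1 summit. From the Pitx1 side, 11 of 93 summits (11.8%, interval 6.05 to 20.2) were shared, against 6.79% of all assigned Pitx1 summits.

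Shared sites at these genes stood high in the Pitx1 list and not in the Tbx5 list. The 11 shared Pitx1 summits had a median score of 63.0 and ran from 2.89 to 272.7, while the 82 others had a median of 8.59 and reached 98.9. Of the 11, 8 were in the highest-scoring 20% of the Pitx1 list, which begins at 18.9. Over all assigned Pitx1 summits the medians were 16.6 for shared and 6.49 for other summits, so a higher score at shared sites was general to the list. The 11 shared Tbx5 summits had a median of 7.64, against 12.9 for the 8 unshared, and 2 of the 11 were in the highest-scoring 20%, which begins at 23.7. Over all assigned Tbx5 summits the order was the other way, with medians of 11.002 for shared and 7.02 for unshared summits. These scores share their lists and no test was made of them. The shares in the highest-scoring 20% were not computed over all shared summits of either list.

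Of the 93 Pitx1 summits, 27 (29.0%, exact interval 20.1 to 39.4) were in the highest-scoring 20%, against 19.8% of all assigned summits, and the medians were 9.54 and 6.49. The share was 21.7% with the nearest gene taken among all annotated genes, 25% within 20 kb and 33.0% over every summit within 50 kb. These values lie inside the interval. The share over all assigned summits was not recomputed for them, so how far the lead depended on the assignment was not tested. Dusp6 gave 6 of the 27, Spry4 5, Spry2 and Il17rd 4 each, Spred2 3, Spry1 and Etv4 2 each and Spred1 1. Of the 19 Tbx5 summits, 3 (15.8%, interval 3.38 to 39.6) were in the highest-scoring 20%, against 20.2% of all assigned, and the medians were 7.64 and 8.29. These 3 lay at Dusp6, Spry1 and Spry2.

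**Figure D4:**
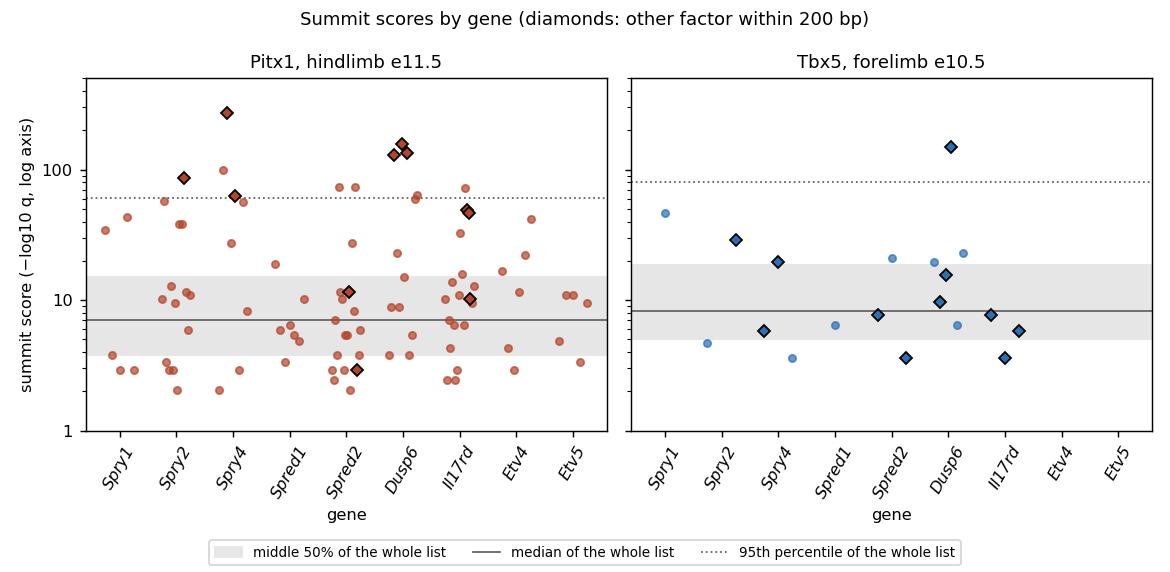
Scores (−log10 q, log axis) of every Pitx1 summit (left) and Tbx5 summit (right) at the 9 genes, in order of position within each gene. The grey band holds the middle 50% of the whole list, the solid line its median and the dotted line its 95th percentile. Diamonds mark summits with the other factor within 200 bp. The Pitx1 diamonds of Dusp6 lie between 129.1 and 158.3, and 1 Tbx5 summit, at Dusp6, lies above the dotted line.

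A second deposited Pitx1 list of 17783 summits is a subset of the longer one. It held 44 of the 93 summits (47.3%, exact interval 36.9 to 57.9), against 32.4% of the longer list. Summits of the longer list in the same 10 classes of score were kept at 39.8%, a value inside the interval. All 11 shared Pitx1 summits were in the second list. The share kept was not computed over all shared Pitx1 summits of the longer list, so whether these 11 differ from them was not tested. Membership did not follow the score alone, since the kept summits ran from 2.45 to 272.7 and those not kept from 2.03 to 32.7.

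Summits near the gene start were counted at the 7 genes with a start in the RefSeq table. A Pitx1 summit lay within 1 kb of a start at 6 of the 7 genes, the exception being Spry2, against 32.9% of 17492 genes. A Tbx5 summit lay within 1 kb at 1 of them, Dusp6, against 3.60%. Of the 79 Pitx1 summits at the 7 genes, 10 were within 1 kb and 27 were upstream of the nearest start. Of the 16 Tbx5 summits there, 1 was within 1 kb. These shares were not computed over all assigned summits. The gene counts were not adjusted for the number of Pitx1 summits, a median of 8 at the 9 genes against 1 over all genes. Of the 93 Pitx1 summits, 38.7% (exact interval 28.8 to 49.4) lay inside the gene, against 60.6% of all assigned summits. Of the 19 Tbx5 summits, 31.6% (12.6 to 56.6) lay inside, against 60.5%. The Sprouty genes and Dusp6 are short, between 4.26 and 15.1 kb, and Etv4, at 15.6 kb, had 2 of 6 Pitx1 summits inside. Among the longer genes, Spred2 (99.6 kb) had 11 of 18 inside and Il17rd (68.3 kb) 15 of 18. Spred1 and Etv5, at 61.2 and 58.3 kb, had 1 of 7 and 2 of 5 inside. The Tbx5 summits inside a gene were all in Spred2 and Il17rd, 3 in each. The part of gene length in these shares was not tested. More than 10 kb outside the gene lay 36 of the 93 Pitx1 and 9 of the 19 Tbx5 summits, and these shares were not computed over all assigned summits.

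Sites of both factors formed 13 groups in which neighbouring summits were at most 1 kb apart. The 11 shared pairs described above lie within these groups, and such groups were not counted over all genes. Dusp6, Spred2 and Il17rd had 3 such groups each and Spry2 and Spry4 had 2 each. The widest, at Spry4, spanned 1372 bp and held 2 Pitx1 and 2 Tbx5 summits. Within a gene, neighbouring Pitx1 summits were a median of 5493 bp apart, and the closest were 436 bp apart.

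Other genes of the pathway were compared through 4 lists with 43 genes. Of these, 32 had a Pitx1 summit and 12 a Tbx5 summit, with 3.94 Pitx1 and 0.524 Tbx5 summits per 100 kb. Among all protein-coding genes, 54.5% had a Pitx1 and 18.7% a Tbx5 summit, the shares to set beside the gene counts of each list. No test was made of these counts. The 17 genes of the ERK cascade, which carry the signal from the receptor, had 2.12 Pitx1 summits per 100 kb (exact Poisson interval 1.44 to 3.01) and 0.137 Tbx5 summits (0.0165 to 0.493), intervals that hold the 2.35 and 0.415 of all protein-coding genes. Of the 17, 13 had a Pitx1 and 2 a Tbx5 summit. The adaptor genes Gab1 and Frs2 held 8 and 7 Pitx1 summits and no Tbx5 summit, and the kinase gene Braf held 3 and none. The 5 receptor genes had 7.42 Pitx1 summits per 100 kb (5.20 to 10.3) and 1.03 Tbx5 summits (0.335 to 2.41). Of the 5, 4 had a Pitx1 and 2 a Tbx5 summit, and all 5 of their Tbx5 summits were shared, 4 of them at Fgfr2. Shared Tbx5 summits numbered 2 of 5 at the ligand genes, 1 of 2 in the ERK cascade and 5 of 9 at the other targets or relatives. Over the 4 lists 13 of 21 were shared, against 38.4% of all assigned Tbx5 summits. Fgfr1 held 7 Pitx1 summits and 1 Tbx5 summit, the highest scoring 159.7 for Pitx1 and 152.3 for Tbx5, while Fgfr2 held 26 and 4, and Fgfrl1, a receptor-like protein without a kinase domain, 2 and none. The 5 ligand genes had 4.63 (2.997 to 6.84) and 0.926 (0.301 to 2.16), with 15 Pitx1 and 3 Tbx5 summits at Fgf10, which starts limb outgrowth from the mesenchyme, 6 and 2 at Fgf9 and 4 and none at Fgf8, both of them ligands of the apical ridge. Of the 5 ligand genes, 3 had a Pitx1 and 2 a Tbx5 summit. The 16 other targets or relatives had 4.35 (3.36 to 5.53) and 0.593 (0.271 to 1.12), with 12 of 16 genes bound by Pitx1 and 6 by Tbx5. Among them Etv1, an Ets relative of Etv4 and Etv5, held 12 and 3, Flrt2, a membrane protein gene, 11 and 2, and the transcription factor genes Myc and Fos 7 and none and 6 and 1. Spry3, Spred3, Dusp2 and Dusp9 held no summit of either factor.

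**Figure D5:**
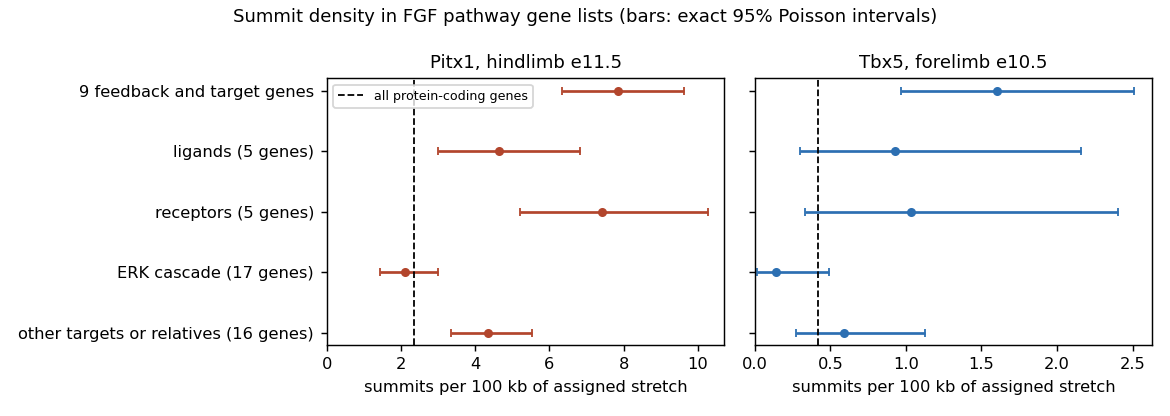
Summits per 100 kb of assigned stretch for the 9 feedback and target genes and 4 other lists of FGF pathway genes, for Pitx1 (left) and Tbx5 (right), with exact 95% Poisson intervals and a dashed line at all protein-coding genes. The Pitx1 value of the 9 genes (7.86) is near that of the receptors (7.42), and the ERK cascade (2.12) lies near the dashed line.

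The limit of 100 kb left out summits around genes with distant neighbours. Just inside it were a Pitx1 summit 96.4 kb outside Spry2 with a score of 10.9 and one 93.8 kb outside Spred2 with a score of 2.89. Just outside it were Pitx1 summits 101.8 and 102.7 kb from Spred1, with scores of 24.7 and 3.83, and one 102.6 kb from Dusp6 with a score of 4.32.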

How the data were processed

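The deposited summit lists of 2 ChIP-seq samples on mm10 were used, with 3 lists in all. HOMER, MACS2 2.1.1.20160309, Bowtie2 2.2.6 and Bowtie 1.1.2 are named, without their roles, per the submitters' processing notes. The deposited score was read as −log10 of the q-value, as MACS2 writes it. Its lowest values, 1.31 for Pitx1 and 1.42 for Tbx5, lie above 1.30, the −log10 of 0.05. The second Pitx1 list carries a further deposited score that the sources used here do not explain and that was not used. The sources used here do not give the control library, read depth, pooling or later filters. Summits were counted as called, so their number depends on depth and threshold.

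The gene models were RefSeq's for GRCm38.p6. Each summit went to the nearest protein-coding gene within 100 kb, the shortest gene where several overlapped, and summits within 200 bp were called shared. Intervals are exact (scipy 1.17.1, Python 3.11.15). The assignment was checked on made-up genes. With 1 sample per factor no test was run. The 9 genes and the pathway lists were chosen with earlier results of these data known. All 9 genes are named with their counts, and of each other list the 3 genes with most summits, ties included, except 1 gene that is not reported here. Exons and sequence away from promoter windows were not used here.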

Additional observations from a re-analysis of the deposited data

How the results depend on the processing

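Of 75 values recomputed under other settings, 63 stayed within 1.5 times the count or within the interval reported. All 13 recomputed density ratios were above 1, between 2.86 and 5.29 for Pitx1 and between 2.99 and 4.39 for Tbx5. The 9 genes held 60 Pitx1 and 10 Tbx5 summits, 7 of them shared, when the nearest gene was taken among all annotated genes. They held 12 Tbx5 summits within 20 kb. With scores at or above the list median they held 55 Pitx1 and 9 Tbx5 summits, 5 of them shared, and 63.6% of the Pitx1 summits were in the second list. The second Pitx1 list gave 44 Pitx1 summits and a density ratio of 5.12. Taking as many of the highest-scoring Pitx1 summits as Tbx5 has gave 26 and a ratio of 5.29. Fewer summits enter by construction in each of these settings. The share of Tbx5 summits that were shared ran from 42.1% to 78.9% over its settings. No limit on distance, a setting chosen after seeing the data, gave 132 Pitx1 and 26 Tbx5 summits with 57.7% shared. No paired analysis was possible because each factor has 1 sample. Read depth is unknown, so a summit missing from a list may be one the depth did not reach.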

Other observations

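Beyond 100 kb, further summits had one of the 9 genes as their nearest protein-coding gene. On the side of its distant neighbour Meis1, Spred2 had 17 Pitx1 and 4 Tbx5 summits, the highest scoring 451.7 for Pitx1 at 19740823, 183.6 kb outside the gene, and 60.7 for Tbx5 at 19610765. Of these Tbx5 summits, 3 were shared. Spry2 had 9 Pitx1 and 3 Tbx5 summits there. Its highest, at 105732462 for Pitx1 and 105732497 for Tbx5, scored 95.3 and 94.8 and lay 159.5 kb outside the gene. Dusp6 had 11 Pitx1 summits there, the highest scoring 100.1 at 99390866, and no Tbx5 summit. Spred1 had 2 Pitx1 summits, and the other 5 genes had none. Which gene such distant sites act on was not tested.

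Neighbouring genes took further summits within 50 kb of the 9 genes. Beside Il17rd, Arhgef3 took 2 Pitx1 summits and 1 Tbx5 summit of 25.5 that was shared, and Hesx1 took 2 Pitx1 summits with a highest score of 37.3. Beside Etv4, Meox1 and Dhx8 took 1 Pitx1 summit each, scoring 54.4 and 26.4. Beside Dusp6, Poc1b took 1 Pitx1 summit scoring 40.2.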
